A study of Mus musculus with 4 samples.

Results

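The 6 ligands Areg, Ereg, Hbegf, Tgfa, Epgn and Btc and the receptors Egfr, Erbb2 and Erbb3 were examined in mouse ears that had been exposed to 2,4-dinitrofluorobenzene (DNFB), a contact allergen. Every array spot of the sample type (no control spot) whose gene name was one of these 9 symbols was taken, which gave 9 of 34797 gene names, 11 of 55681 probes and 38 of 59305 spots. The mutant mice, called RelAE-MUT, were K14Cre RelAfl/fl, in which Cre driven from the keratin 14 promoter of basal keratinocytes recombines a floxed allele of RelA, a subunit of the transcription factor NF-kB. The wild-type mice were RelAfl/fl and carried the same floxed alleles. There were 2 mutant and 2 wild-type mice, and total RNA of ear tissue was collected 48 h after DNFB in both groups. No array of an untreated ear and none of a mouse with Cre and unfloxed RelA was analysed here, so that a Cre effect and a RelA effect cannot be told apart, and the labels give no age or sex.

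The ligands of the EGF family are made as precursors anchored in the cell membrane, from which metalloproteases such as ADAM17 release the active growth factor. Areg, Tgfa, Epgn, Ereg, Hbegf and Btc proteins bind EGFR, and some of them also bind ERBB4. ERBB2 has no known ligand of its own and acts as a partner of the other receptors, and ERBB3 binds neuregulins and has little kinase activity. Signals of these receptors run through RAS and the ERK kinases, and in epidermis keratinocytes both make the ligands and respond to them during growth and wound closure.

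Each ear was read on 1 single-colour array, and the 4 arrays lay on 1 slide. Levels are log2 intensities relative to the 75th percentile of the array, so that 0 is the intensity at that percentile. A level compares the ears for 1 probe and says nothing about 1 gene against another. Between 61.21% and 64.27% of the spots of an array were well above background and none was saturated. The array of mutant mouse 2 had 97 spots that were dark on that array alone, and 94 of them lay in 1 damaged corner, which holds 3290 of the 59305 spots and 1 spot of the members, a Tgfa spot. The array of wild-type mouse 2 had 87 such dark spots, of which 4 lay in the area of that corner and 49 carried a keratin or keratin-associated gene name, and the other arrays had 4 and 6. None of these dark spots was a member's. Values of the 23633 tested genes correlated between pairs of the 4 arrays with r between 0.9827 and 0.9931. Basal keratinocyte markers were present on all arrays, with Krt5 at log2 levels of 8.69 and 8.85 in mutant ears and 8.58 and 8.76 in wild-type ears. The probe of Rela, the targeted gene, had log2 levels of 4.59 and 4.72 in mutant ears and 4.48 and 4.60 in wild-type ears (adjusted p of limma = 0.899). That probe checks nothing, because which exons the floxed allele loses is not in the labels, its spot lies in the damaged corner and the ear holds many cells without keratin 14.

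None of the 11 probes passed the threshold of adjusted p below 0.05 in limma's moderated test over 33675 tested probes, a threshold that 7 probes passed (0.0208%). At an unadjusted p below 0.05 there was 1 member, Areg, against 6.55% of all tested probes in either direction and 2.99% higher in mutant ears. Without wild-type mouse 1 no member had an unadjusted p below 0.05 (lowest p of limma 0.084). All 11 probes were well above background on all 4 arrays. Of the 9 genes, each taken by its brightest probe, 5 had a log2 fold change above 0, against 53.5% of 23633 genes taken in the same way and 52.6% of all tested probes. The values of mutant and wild-type ears did not overlap for 3 of the 9 genes, all higher in mutant ears, while 36.3% of genes had groups without overlap in either direction, 18.9% higher and 17.4% lower. Among all probes the corresponding shares were 36.3% in either direction, 18.7% higher and 17.6% lower. The lowest adjusted p of any member was 0.647. With 2 mice a group, an exact two-sided permutation test of 1 gene cannot give a p below 0.333.

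**Figure D1:**
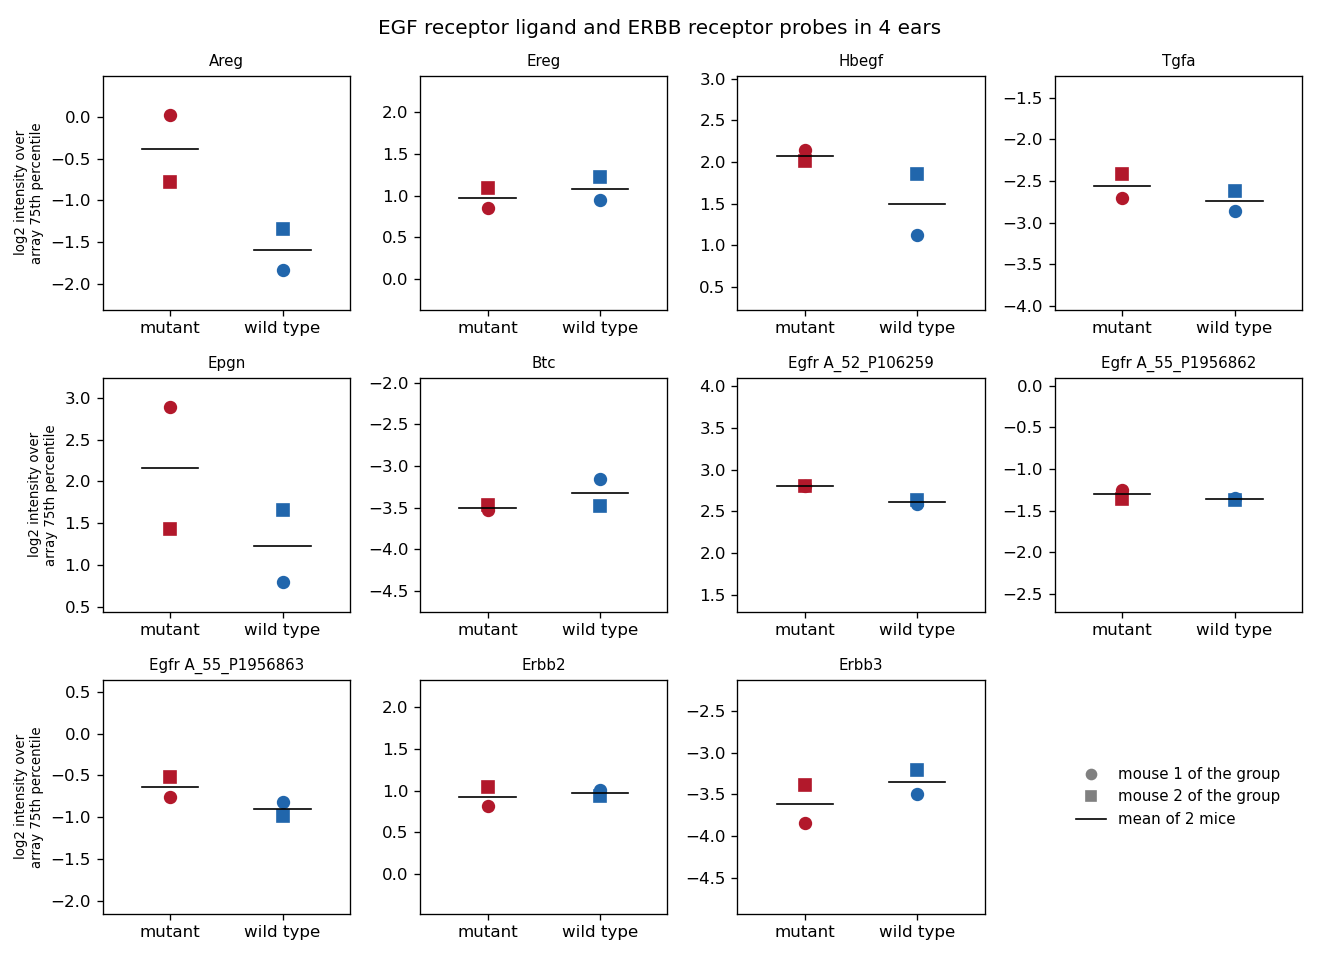
Log2 intensity relative to the array 75th percentile (vertical axis, each panel spanning the same number of log2 units) of the 11 member probes in mutant (left, red) and wild-type (right, blue) ears. Each point is 1 mouse and each line the mean of 2 mice. Areg, Hbegf and the Egfr probes A_52_P106259 and A_55_P1956863 have both mutant values above both wild-type values.

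Areg, which encodes amphiregulin, had the largest difference of the 9 genes. Its log2 level was 0.02 and -0.78 in the mutant ears, against -1.84 and -1.35 in the wild-type ears. Both mutant values lay above both wild-type values, and mutant mouse 1 was the highest of the 4. In processed intensity, these were 627.3 and 343.2 in the mutant ears, against 185.3 and 245.2 in the wild-type ears. The log2 fold change was 1.21 ± 0.33 (limma's standard error, n = 2 each), which is 2.32-fold with a 95% interval of 1.27 to 4.24. Across all tested probes a log2 fold change of 1 or more in the higher direction was found in 1.02%, and the median absolute log2 fold change was 0.121. Its unadjusted p was 0.0167 and its adjusted p 0.647 in limma, and 867 was its rank by p among the 33675 probes. The difference is larger than the gap between mice of a group, which was 0.796 in mutants and 0.495 in wild types, but did not pass the adjusted threshold.

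The Areg probe lies on chromosome 5 at chr5:91570090-91570149 on the plus strand of mm9. Its sequence is shown because the largest difference among the members rests on this 1 spot, and 1 of its 3 reading frames, the frame from base 2, holds no stop codon.
Areg probe: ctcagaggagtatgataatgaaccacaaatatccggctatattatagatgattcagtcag

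Epgn, which encodes epigen, had log2 levels of 2.89 and 1.43 in the mutant ears, against 0.79 and 1.66 in the wild-type ears. The probe lies at chr5:91464119-91464178 on the plus strand. The groups overlapped, since mutant mouse 2 lay between the wild-type mice, and mutant mouse 1 was far above the other 3 mice. The log2 fold change was 0.93 ± 0.57, with a 95% interval from -0.59 to 2.45, and the adjusted p of limma was 0.860. Without mutant mouse 1 the log2 fold change was 0.20, and without mutant mouse 2 it was 1.66.

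Hbegf, which encodes heparin-binding EGF-like growth factor, had log2 levels of 2.14 and 2.01 in the mutant ears, against 1.12 and 1.86 in the wild-type ears. The probe lies at chr18:36664738-36664797 on the minus strand. The groups did not overlap, although wild-type mouse 2 was closer to the mutant mice than to the other wild-type mouse. The log2 fold change was 0.59 ± 0.27, with a 95% interval from -0.13 to 1.30, and the adjusted p of limma was 0.807. Without wild-type mouse 1 it was 0.22, and without wild-type mouse 2 it was 0.95.

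The other 3 ligands had overlapping groups. Ereg, which encodes epiregulin, had log2 levels of 0.85 and 1.09 in mutant ears, against 0.95 and 1.22 in wild-type ears, a log2 fold change of -0.11 ± 0.16 (95% interval -0.54 to 0.32, adjusted p of limma = 0.923). The gap between mice of a group was larger than the difference between groups. Tgfa, which encodes transforming growth factor alpha, had log2 levels of -2.70 and -2.42 in mutant ears, against -2.86 and -2.62 in wild-type ears, with a log2 fold change of 0.18 ± 0.16 (95% interval -0.25 to 0.61, adjusted p of limma = 0.887). Btc, which encodes betacellulin, had log2 levels of -3.53 and -3.47 in mutant ears, against -3.16 and -3.48 in wild-type ears, with a log2 fold change of -0.18 ± 0.15 (95% interval -0.58 to 0.22, adjusted p of limma = 0.881). In mm9 the Ereg probe lies at chr5:91522553-91522612 and the Tgfa probe at chr6:86224838-86224897 on the plus strand, and the Btc probe at chr5:91786948-91787007 on the minus strand. Fits that each left out 1 mouse gave log2 fold changes from 0.04 to 0.32 for Tgfa, from -0.34 to -0.02 for Btc and from -0.25 to 0.02 for Ereg. Of the 6 ligands, 4 had a log2 fold change above 0, against 53.5% of all genes, and 2 had groups without overlap (both higher in mutant ears), against 36.3% in either direction and 18.9% higher. The median was 0.383, beside 0.0144 over all genes taken by the brightest probe, and it came to 0.139 when wild-type mouse 1 was left out and to 0.627 when wild-type mouse 2 was.

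Egfr, the receptor that all 6 ligands bind, was measured by 3 probes. The probe A_52_P106259, at chr11:16813815-16813874 on the plus strand and annotated to transcript variant 1, was the brightest and was printed at 10 spots. Its log2 levels were 2.80 and 2.81 in mutant ears, against 2.59 and 2.64 in wild-type ears, so that both mutant values lay above both wild-type values by a small margin. The log2 fold change was 0.19 ± 0.11 (95% interval -0.10 to 0.47), with an adjusted p of limma of 0.849. The other 2 probes are annotated to transcript variant 2, a shorter transcript, and whether they read that transcript alone was not tested. The log2 fold change was 0.05 ± 0.11 for A_55_P1956862, whose groups overlapped, and 0.26 ± 0.14 for A_55_P1956863, whose groups did not. A_55_P1956862 had log2 levels of -1.25 and -1.36 in mutant ears, against -1.35 and -1.37 in wild-type ears. A_55_P1956863 had log2 levels of -0.76 and -0.52 in mutant ears, against -0.82 and -0.99 in wild-type ears. The 3 fold changes are above 0 and none passed the threshold (adjusted p of limma 0.849, 0.953 and 0.846).

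The sequence of A_55_P1956863, at chr11:16783556-16783615 on the plus strand of mm9, is shown because it had the largest fold change of the 3 Egfr probes.
Egfr probe A_55_P1956863: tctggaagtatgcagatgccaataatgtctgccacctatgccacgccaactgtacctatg

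Erbb2 had log2 levels of 0.81 and 1.04 in mutant ears, against 1.01 and 0.94 in wild-type ears. The groups overlapped, and the log2 fold change was -0.05 ± 0.13 (95% interval -0.40 to 0.30, adjusted p of limma = 0.964). Erbb3 had log2 levels of -3.85 and -3.39 in mutant ears, against -3.50 and -3.21 in wild-type ears, which also overlapped. Its log2 fold change was -0.26 ± 0.21 (95% interval -0.82 to 0.30, adjusted p of limma = 0.880). The Erbb2 probe lies at chr11:98298103-98298162 on the plus strand and the Erbb3 probe at chr10:128006424-128006483 on the minus strand. Leaving out 1 mouse at a time gave values from -0.17 to 0.06 for Erbb2 and from -0.49 to -0.03 for Erbb3. Of the 3 receptor genes, 1 had a log2 fold change above 0, and the median was -0.05, which was 0.06 without mutant mouse 1 and -0.17 without mutant mouse 2. RNA of whole ears does not separate fewer cells of a type from less RNA per cell, which holds for every gene here.

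**Figure D2:**
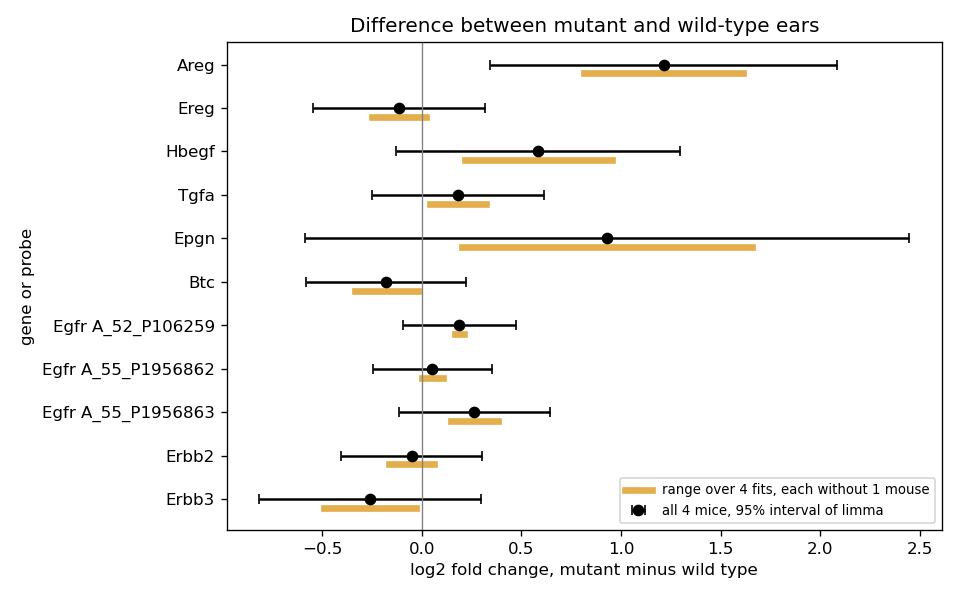
Log2 fold change, mutant minus wild type (horizontal axis), of each member gene or Egfr probe (vertical axis). Black points with bars are the fit to all 4 mice with limma's 95% interval, and orange bars the range over 4 fits that each leave out 1 mouse. Areg has the only interval that lies above 0, and the ranges of Epgn and Hbegf are wide.

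Tgfa, Egfr and Erbb2 were each printed at 10 spots of 1 probe, which separates error within an array from differences between mice. For Egfr the spots spread by SDs of 0.0801 and 0.0382 in the mutant ears, against 0.0448 and 0.0595 in the wild-type ears. For Erbb2 the SDs were 0.0632 and 0.0459 in mutant ears, against 0.0348 and 0.0581 in wild-type ears. For Tgfa they were 0.143 and 0.0602 in mutant ears, against 0.117 and 0.119 in wild-type ears. Spots of 1 array are repeats of a measurement on 1 mouse and were averaged before the fit, so they add no mice to the comparison. The other member probes were printed at 1 spot each, and their error within an array was not measured.

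**Figure D3:**
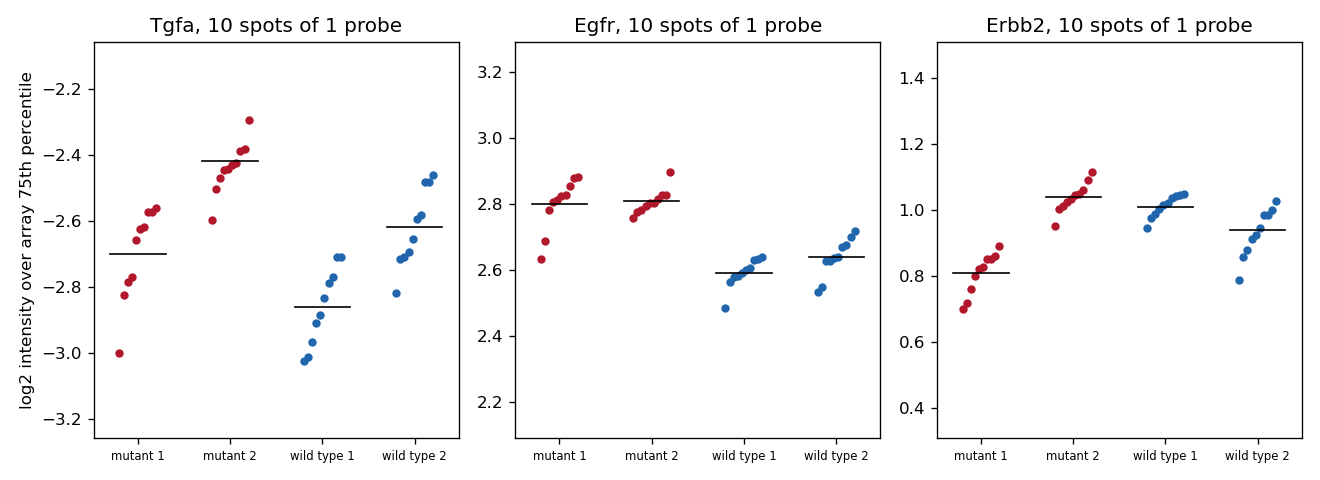
Log2 intensity relative to the array 75th percentile (vertical axis) of each of the 10 spots, sorted by value, that carry the Tgfa, Egfr or Erbb2 probe, by ear (mutant 1, mutant 2, wild type 1, wild type 2 from left to right). The black line is the mean that entered the fit, which leaves out spots with an outlier flag, and the Egfr lines of both mutant ears lie above those of both wild-type ears.

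Epgn, Ereg, Areg and Btc lie in 1 run of neighbouring genes on chromosome 5, between Mthfd2l and Parm1 in the order of the RefSeq annotation of GRCm38.p6. Their log2 fold changes were 0.93 for Epgn, -0.11 for Ereg, 1.21 for Areg and -0.18 for Btc. Neighbours in this run therefore had values on both sides of 0. Mthfd2l, the flanking gene on the Epgn side, had log2 levels of -0.33 and -0.24 in mutant ears, against -0.68 and -0.62 in wild-type ears, a log2 fold change of 0.36 ± 0.11 (adjusted p of limma = 0.698). Parm1, on the Btc side, showed a log2 fold change of -0.07, and Cxcl2, a chemokine gene beyond Mthfd2l, had -0.20. No gene of the run passed the threshold.

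Promoter sequences of 6 members (Areg, Tgfa, Epgn, Btc, Egfr and Erbb2) were found in a RefSeq promoter table for GRCm38.p6, which gives 250 bases before the start of a gene and 50 after it. They were searched on both strands for the AP-1 motif TGANTCA, the cyclic AMP response element TGACGTCA and the kB consensus, the site that NF-kB dimers bind. The first 2 motifs cannot match the same letters. Over 32851 promoters of the same length the shares with a match were 7.81% for AP-1, 1.79% for the response element and 8.46% for kB. Areg, the member with the largest difference, held a response element that begins 61 bases before the start, and Tgfa held a kB match that begins 22 bases after the first transcribed base. The other 4 promoters held none of the 3 motifs. Both matching promoters are shown with the match in capitals and are on the plus strand.
Areg promoter, chr5:91139349-91139648: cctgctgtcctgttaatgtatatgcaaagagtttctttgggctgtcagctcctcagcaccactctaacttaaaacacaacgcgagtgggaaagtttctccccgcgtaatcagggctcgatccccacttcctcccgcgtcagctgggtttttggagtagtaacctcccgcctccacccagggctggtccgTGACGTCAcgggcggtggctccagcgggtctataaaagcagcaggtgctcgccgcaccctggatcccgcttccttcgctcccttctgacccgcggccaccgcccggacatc
Tgfa promoter, chr6:86194972-86195271: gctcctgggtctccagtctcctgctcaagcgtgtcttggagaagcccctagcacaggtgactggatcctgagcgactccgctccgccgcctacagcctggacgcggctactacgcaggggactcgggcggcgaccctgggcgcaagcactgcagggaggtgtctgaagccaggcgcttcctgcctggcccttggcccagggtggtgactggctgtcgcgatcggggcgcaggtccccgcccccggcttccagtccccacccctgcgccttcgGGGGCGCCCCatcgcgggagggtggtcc
A match in letters is a description of the sequence and not evidence of binding.

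Genes around the receptors were examined in 6 lists that hold 93 genes, of which 89 were tested, each by its brightest probe. The lists were chosen with earlier results of these data known. Their counts beside the shares of all genes are therefore a description and not independent support. None of the 89 passed the threshold, a threshold that 4 of all 23633 genes passed (0.0169%). At an unadjusted p below 0.05 there were 10 of the 89, against 6.13% of all genes.

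Of the EGF family outside the 9 genes, Egf, Nrg1, Nrg2 and Nrg4 were tested and Nrg3 and Erbb4 were not well above background on both arrays of a group. Nrg4, a ligand of ERBB4, had log2 levels of -1.08 and -1.16 in mutant ears, against 0.22 and -0.38 in wild-type ears. The groups did not overlap, and the log2 fold change was -1.04 ± 0.23 (unadjusted p = 0.0074 and adjusted p = 0.571 in limma). Its other 2 tested probes had log2 fold changes of -0.93 and -0.81. Nrg1 had 0.31, Nrg2 0.23 and Egf -0.08, and the list's median was 0.08, which was -0.20 without mutant mouse 1.

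Of the proteases and rhomboids of ligand shedding, 5 of 9 genes were above 0, against 53.5% of all genes, with a median log2 fold change of 0.09. Of the 9, 4 had higher values in both mutant ears, against 18.9% of all genes, and 1 had lower values, against 17.4%. Rhbdl2, a rhomboid protease, had a log2 fold change of 0.33 and Adam10 one of 0.26, both with higher values in both mutant ears. Adam12 had -0.24, and Adam17, the main sheddase of Areg, Hbegf and Tgfa, had 0.15. The feedback inhibitors and regulators of receptor turnover had 12 of 20 genes above 0, against 53.5% of all genes, and a median of 0.02. Of the 20, 3 had higher values in both mutant ears, against 18.9%, and 5 had lower values, against 17.4%. Dusp6, an ERK phosphatase, was at 0.36 and Dusp4, also a MAP kinase phosphatase, at -0.33. Ptprk, a receptor phosphatase, had a log2 fold change of -0.30 and Dusp5 one of 0.22. Of the adaptors and the RAS, MAPK and PI3K genes, 16 of 26 were above 0, against 53.5% of all genes, with a median of 0.02. Of the 26, 3 had higher values in both mutant ears, against 18.9%, and 2 had lower values, against 17.4%. Sos1, which activates RAS, had the largest value at 0.35.

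Of 20 tested transcripts induced by ERK, 18 had a log2 fold change above 0, against 53.5% of all genes, and 8 had values higher in both mutant ears, against 18.9%. The median was 0.43, beside 0.0144 over all genes. This list, too, was chosen with earlier results of these data known, and ERK activity was not measured. Areg and Hbegf are in this list, as is Ereg, and without these 3 the median was 0.41 with 16 of 17 above 0. The share above 0 holds for the listed transcripts only and depends on which were placed here. Dusp4, Dusp5 and Dusp6, at -0.33, 0.22 and 0.36, were placed among the feedback inhibitors, whose median was 0.02. Fosb, a subunit of AP-1, had log2 levels of 0.64 and 0.17 in mutant ears, against -0.95 and -0.42 in wild-type ears, a log2 fold change of 1.10 ± 0.26 (adjusted p of limma = 0.589). Fos, whose spot lies in the damaged corner of mutant mouse 2, had 2.21 and 2.28 in mutant ears, against 1.25 and 1.45 in wild-type ears, a log2 fold change of 0.89 ± 0.13 (adjusted p of limma = 0.442). Hmga2, an architectural chromatin protein, had 0.77 ± 0.53 by its brightest probe, with overlapping groups. Its other tested probe had 1.1 ± 0.33 (adjusted p of limma = 0.685). Egr2 and Egr3 were not tested. The median of the 20 ERK transcripts was 0.07 without mutant mouse 1 and 0.21 without wild-type mouse 1.

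Genes of activated keratinocytes, a list that includes stress and wound keratins, had a median of 0.60. Of the 10 genes, 8 were above 0, against 53.5% of all genes, and 6 had higher values in both mutant ears, against 18.9%. Serpinb3a, a serine protease inhibitor of the epidermis, had log2 levels of 2.60 and 3.0 in mutant ears, against 1.41 and 1.61 in wild-type ears, a log2 fold change of 1.29 ± 0.18 (adjusted p of limma = 0.442). Sprr2d, a cornified envelope precursor, differed by a log2 fold change of 0.998 ± 0.21 (adjusted p of limma = 0.562), and Krt6a, a keratin of wounded epidermis, had 0.67. Mmp9, a matrix protease whose spot lies in the damaged corner, had -0.72 with lower values in both mutant ears. Without wild-type mouse 1 the list's median was 0.24.

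**Figure D4:**
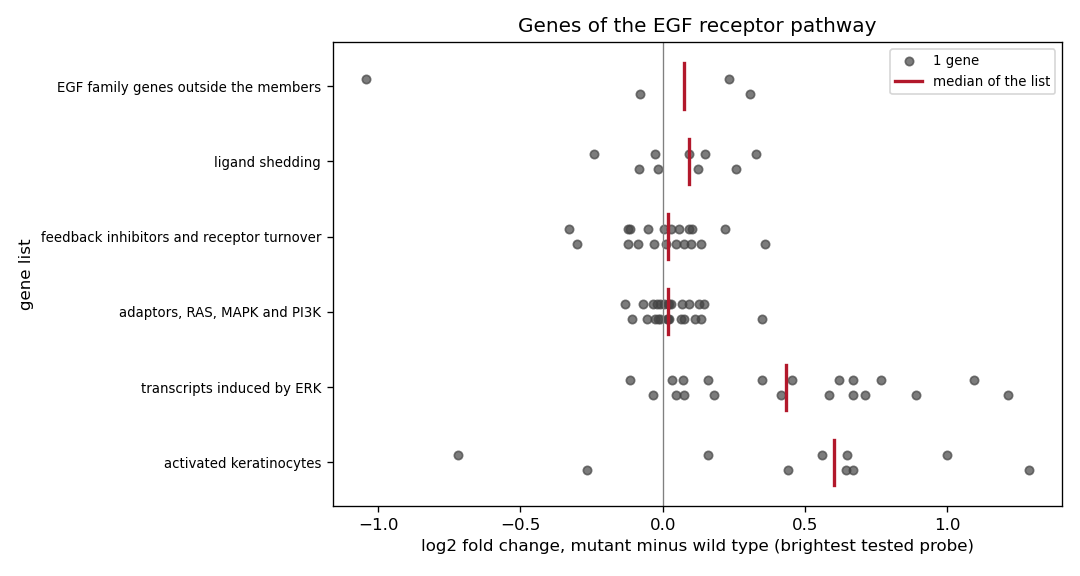
Log2 fold change, mutant minus wild type (horizontal axis), of each tested gene, by its brightest probe, in 6 lists (vertical axis). Grey points are genes and red lines the median of a list, which is 0.43 for the transcripts induced by ERK and 0.60 for the genes of activated keratinocytes, and between 0.02 and 0.09 for the other 4.

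Markers of the cells an ear holds were read beside these values. The summed level, in linear multiples of the 75th percentile and so weighted towards bright probes, of 7 basal keratinocyte markers was 828 and 874 in mutant ears, against 740 and 859 in wild-type ears, and that of 7 suprabasal markers 726 and 820 in mutant ears, against 795 and 801 in wild-type ears. Both sums overlapped between the groups, and 5 of the 7 basal markers had a log2 fold change above 0, against 53.5% of all genes. Krt15, a basal marker, had log2 levels of 5.03 and 5.28 in mutant ears, against 6.06 and 5.74 in wild-type ears. Its log2 fold change was -0.74 ± 0.17 (adjusted p of limma = 0.589). All 5 melanocyte markers had higher values in both mutant ears, against 18.9% of all genes. Their median log2 fold change was 1.22, with summed levels of 14.3 and 17.3 in mutant ears, against 7.47 and 6.65 in wild-type ears. The spots of the melanocyte marker Dct and the eosinophil marker Il5ra lie in the damaged corner of mutant mouse 2. The eosinophil markers Siglec5, Ccr3 and Il5ra had log2 fold changes of 0.96, 0.70 and 0.21, and Prg2, at 2.12, was well above background on 3 arrays only. The T cell, macrophage and neutrophil lists had medians of -0.09, -0.14 and -0.09. Of 6 macrophage markers, 4 had lower values in both mutant ears, against 17.4% of all genes, and 2 had log2 fold changes above 0. Lyz2 had a log2 fold change of -0.56 and Cd68 one of -0.40 by the brightest probe (adjusted p of limma 0.566 and 0.680). The other tested Cd68 probe had -0.88 ± 0.13 (adjusted p of limma = 0.442). Lower values in both mutant ears were also found for 2 of 7 T cell and 2 of 7 neutrophil markers. Lower medians were found for sebocyte markers, at -0.375 with 5 of 6 below 0 and 4 with lower values in both mutant ears, against 17.4% of all genes, and Elovl3 and Awat1 had log2 fold changes of -0.74 and -0.70 (adjusted p of limma 0.525 and 0.455). Adipocyte and skeletal muscle markers had medians of -0.24 and -0.21, with all 5 genes of each below 0. None of these lists held a gene past the threshold. Their part in the values of Areg, Hbegf and Epgn was not tested.

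The 4 values of Areg, each minus their mean, were 1.0 and 0.21 in mutant ears, against -0.85 and -0.36 in wild-type ears. Among 14183 other genes with a full symbol (no clone, accession or predicted name) whose brightest probe was well above background on all arrays, Fosb came nearest to this pattern with a mean absolute difference of 0.11 over the 4 arrays, followed by Nppb, which encodes a natriuretic peptide, at 0.116 and Gml at 0.154. The median difference over all candidates was 0.603. In Areg, Epgn and Hbegf mutant mouse 1 had the highest and wild-type mouse 1 the lowest value. That order was chosen after the values were seen, and it held for 12.7% of all genes, for 3 of the 9 members (33.3%), for 9 of the 17 ERK transcripts that are not members (52.9%) and for 4 of the 10 genes of activated keratinocytes (40%).

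**Figure D5:**
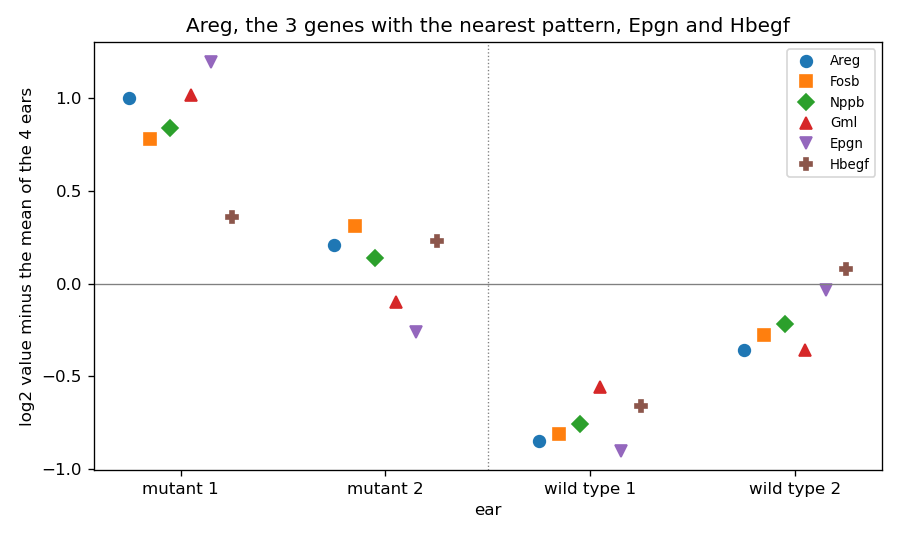
Log2 value minus the mean of the 4 ears (vertical axis) for Areg, the 3 genes with the nearest pattern (Fosb, Nppb, Gml), Epgn and Hbegf, by ear (horizontal axis, mutant ears left of the dotted line, wild-type ears right). Each point is 1 gene in 1 ear, and all 6 genes are highest in mutant mouse 1 and lowest in wild-type mouse 1.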

How the data were processed

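RNA (100 ng a mouse) from the ears of 2 mutant and 2 wild-type mice was labelled with Cy3 and hybridised to 4 arrays of 1 slide. Per the file headers, the deposited processed intensity of each spot came from Agilent Feature Extraction 10.7.3.1 on build mm9, with the background subtracted and no scaling between arrays. Spot flags in the deposited files take the values 0 or 1. The authors' deposited table of the series holds the ratio of the processed intensity to the array median, found from its values. Control spots (3671) and spots with an outlier flag were left out, spots of a probe were averaged, and log2 intensities, computed from the deposited values, were taken relative to the array 75th percentile. A probe entered the test if both arrays of a group had it well above background, in a share of at least 0.5 of its spots (33675 of 55596 probes, 60.57%). Mutant minus wild type was fitted with limma 3.58.1 (lmFit and eBayes, two-sided) in R 4.3.3 with the data.table package (version 1.17.8), with Benjamini-Hochberg adjustment over all tested probes. Errors are limma's standard errors. Residual degrees of freedom were 2 and prior ones 2.55. Sequences were read with pandas 2.3.3 in python 3.11.15, and figures drawn with matplotlib 3.10.9. The fit was tested on simulated data.

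The number of arrays limits the precision. A p-value of limma sets a difference against a variance that draws on the spread between these mice and on that of all tested probes. The labels' numbers 1 and 2 do not say that they pair mice, so that no block entered the fit. Deviations of same-numbered mice correlated at -0.159 across probes, and at -0.231 across probes outside the damaged corner. With 2 mice a group, such a correlation cannot show whether mice were paired. Members and lists were chosen with earlier results of these data known. The text names all 9 members with every probe, up to 4 genes of a list with the largest absolute fold change, and the 3 genes nearest to Areg. Settings tried instead were normexp, quantile, median and detected-probe scaling or values of that table, other probe filters, 1 probe or the mean of probes a gene, trend and robust variance, the replicate block, the damaged corner left out and each mouse left out.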

Additional observations from a re-analysis of the deposited data

How the results depend on the processing

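No member passed the threshold under any of the 17 alternatives run. Of the 13 that keep all 4 mice, those of probe filter, variance and replicate block cannot move a member's log2 fold change. Leaving out the corner moved none, the mean of probes moved Egfr alone, and the authors' table gave the values of median scaling. None of 139 member values changed sign under these 13, and many of the 139 could not have. Areg had log2 fold changes from 1.03 to 1.23 there, and its adjusted p ran from 0.299 with the crossed replicate block, which pairs mutant mouse 1 with wild-type mouse 2 and was chosen after seeing the data, to 0.855 with no filter on dim probes. The lowest adjusted p of a member with the replicate block on the labels' numbers was 0.811. Erbb3 and Btc had the lowest intensities of the members. With normexp their log2 fold changes came to -0.07 for Erbb3, from -0.26, and to -0.04 for Btc, from -0.18. Leaving out a mouse changed the sign of 3 of 44 member values, Erbb2 at 0.06 without mutant mouse 1, and Ereg at 0.01 without mutant mouse 1 and 0.02 without wild-type mouse 2. Leaving out each mouse, Areg ranged from 0.81 without mutant mouse 1 to 1.61 without mutant mouse 2, Erbb2 from -0.1668 to 0.06372 and Ereg from -0.2517 to 0.02335. The lists' 0 genes past the threshold became 1, Serpinb3a (adjusted p = 0.0474), with trend and robust variance. The count over all probes, 7, became 1 with no filter, 2 with only probes well above background on all arrays, 4 with 1 probe a gene, 35 with trend and robust variance, 1 with either replicate block and 11 without the damaged corner, and ran from 0 without either wild-type mouse to 162 without mutant mouse 1. The labels do not say whether equal numbers pair mice, and the counts under the block are given without a reading. The 1 member with an unadjusted p below 0.05 became 0 without wild-type mouse 1, 2 with normexp and without either of mutant mouse 2 and wild-type mouse 2, and 3 with the crossed replicate block. The cause of these changes was not tested.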
